A study of Caenorhabditis elegans with 2 samples.

Results

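Nuclear genes of the mitochondrial respiratory chain and of the mitochondrial ribosome were examined for binding of B0261.1, a protein with a Myb-like domain listed in the annotation as vep-1, in whole Caenorhabditis elegans. The genes were chosen by symbol: of 19971 nuclear protein-coding genes in the RefSeq annotation, 106 had a symbol beginning with nuo-, cox-, atp-, ucr-, sdh, mrpl- or mrps-. The prefix cco- matched no gene. Of the 106 genes, 35 belong to the respiratory chain by symbol and 71 to the mitochondrial ribosome. Binding was measured by chromatin immunoprecipitation with sequencing (ChIP-seq), in which DNA bound by a protein is recovered with an antibody and sequenced. The worms formed 1 group, of strain OP662, which carries the insertion wgIs662, encoding B0261.1 with a C-terminal GFP-FLAG tag, in an unc-119(tm4063) background. The worms were young adults of mixed sex, collected 64 hours after synchronisation by starvation at the first larval stage. The 2 biological replicates are numbered 1 and 3. The samples used here have 1 genotype and 1 stage, so the comparisons are between gene groups within the same lists. The precipitation used an antibody against GFP according to the sample description, while the antibody field names B0261.1 itself. The values come from 1 transgenic strain and are averaged over all tissues of the worm; whether untagged protein was recovered too cannot be told from the labels. Untagged worms and control libraries were not analysed here.

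The respiratory chain passes electrons from NADH and succinate to oxygen through complexes I to IV of the inner mitochondrial membrane, and complex V, the ATP synthase, uses the resulting proton gradient to make ATP. The mitochondrial ribosome translates the few chain subunits that the mitochondrial genome still encodes; its own proteins, like most chain subunits, are encoded in the nucleus and imported. In C. elegans many such genes lie in operons, in which neighbouring genes on 1 strand are transcribed together and the transcripts are separated by trans-splicing. The annotated start of a gene is therefore often a trans-splice site rather than the site where transcription begins. Binding was assigned to a gene when the summit of a region, its point of highest enrichment, lay no more than 500 bp before and 100 bp after the annotated start. Offsets are summit minus start, negative upstream.

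The summit with 50 bases on each side is shown for 4 of the 6 members with a reproducible peak, since these summits carry the main result. They come from the RefSeq genome WBcel235, the same assembly as ce11, on the plus strand, which is also the strand of all 4 genes. None overlapped an annotated exon. Capitals mark matches to 6 sequences of 6 bases, searched on both strands because they were frequent near summits in an earlier look at these data. CGGCCA can overlap with the searched sequence GGCCGA, and CGCGCA can overlap with the searched sequence GCGCAC, so matches within each pair are not independent. The remaining sequences were CACTCG and, as the last, ACCACT. The window of cox-5A, chrIII:12905120-12905220, held GGCCGA. That of ucr-2.2, chrX:15173680-15173780, held CGCGCA. That of mrpl-32, chrIII:8449380-8449480, held none of the 6. That of cox-6B, chrIII:2786011-2786111, held CGCGCA as printed and GCGCAC on the opposite strand.
cox-5A: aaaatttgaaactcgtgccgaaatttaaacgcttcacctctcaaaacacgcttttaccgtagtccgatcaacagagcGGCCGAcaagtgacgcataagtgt
ucr-2.2: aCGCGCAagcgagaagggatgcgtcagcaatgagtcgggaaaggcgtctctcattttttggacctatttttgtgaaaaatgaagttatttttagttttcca
mrpl-32: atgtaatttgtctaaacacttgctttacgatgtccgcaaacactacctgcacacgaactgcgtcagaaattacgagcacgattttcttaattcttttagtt
cox-6B: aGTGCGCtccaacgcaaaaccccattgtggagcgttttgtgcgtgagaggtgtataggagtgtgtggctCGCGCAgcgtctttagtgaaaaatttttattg

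The summit windows of the other 2 members with a reproducible peak, atp-1 and cox-5B, are not printed; that of cox-5B held CACTCG and that of atp-1 held none. Over all 367 protein-coding genes with a reproducible peak, the window of the best summit held CGCGCA for 54 (14.7%), GCGCAC for 55 (15.0%), GGCCGA for 36 (9.81%), CGGCCA for 49 (13.4%), CACTCG for 46 (12.5%) and ACCACT for 38 (10.4%). CGCGCA was present at 2 of the 6 members, cox-6B and ucr-2.2, and each other sequence at 1 or 0. A match is a description of letters and not of a binding site.

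The authors deposited 4 lists of regions for build ce11: 23931 regions for replicate 1, 30000 for replicate 3, 30000 for both replicates pooled, and a shorter list of peaks past a threshold on the irreproducible discovery rate (IDR), which measures how well peaks recur between replicates. The first 3 lists contain peaks and background regions alike, so a region there is weaker evidence than an IDR peak. The IDR list is the one the authors call optimal, and its peaks are the reproducible peaks of this text. That name does not mean a summit in both replicates' own lists: the IDR peak of cyc-2.1 had none within 100 bp in replicate 1. Each member with an IDR peak had one within 100 bp in both replicates' lists, at ranks given below. Each region carries the authors' signal value, with no stated normalisation; it is compared only within a list. Ranks count from 1 at the highest signal. Read depth is not given in the lists, so precision rests on numbers of genes, and the Wilson intervals (95%) cover counting of genes only.

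Of the 6 members with a reproducible peak, 5 encode subunits of the respiratory chain and 1 a protein of the mitochondrial ribosome. Of the 35 respiratory chain genes, 5 had an IDR peak in the window (14.3%, interval 6.26 to 29.4%), against 1 of 71 mitochondrial ribosome genes (1.41%, 0.249 to 7.56%). Together 6 of 106 members had one (5.66%, 2.62 to 11.8%), and the share over all nuclear protein-coding genes was 1.84% (367 of 19971). The respiratory chain share thus lay above the background and the mitochondrial ribosome share close to it, with intervals of the 2 groups that overlap. No test was made, because the genes were chosen with earlier results of these data known. The 5 chain genes were atp-1 of complex V, cox-5B, cox-5A and cox-6B of complex IV, and ucr-2.2 of complex III; the ribosomal gene was mrpl-32.

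The peak of atp-1, which encodes the alpha subunit of the ATP synthase, had the highest signal of the 6. Its start is at 12652277 on chromosome I and its summit at 12652302, offset +25, in an untranslated exon segment of atp-1 itself. The signal was 310 in the IDR list, at rank 1001. In the replicates' own lists the nearest summit had a signal of 53.5 at rank 1515 in replicate 1 and 253 at rank 1098 in replicate 3. It was the only member that stood, in each replicate, among as many of the highest regions as there are IDR peaks. The summit also lay 215 bp upstream of the start of mcrs-1, so it cannot be assigned to 1 gene by position.

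Complex IV, cytochrome c oxidase, passes electrons to oxygen. Of the 7 cox- genes for its structural subunits, 3 had an IDR peak (42.9%, 15.8 to 75.0%), against 1.84% of all protein-coding genes. The start of cox-5B is at 9789009 on chromosome I; its summit at 9788720, offset -289, had an IDR signal of 288 at rank 1055. Its region had a signal of 25.4 at rank 4120 in replicate 1 and 213 at rank 1238 in replicate 3, so its place was far lower in replicate 1. The start of cox-5A is at 12905491 on chromosome III; its summit at 12905170, offset -321, had an IDR signal of 259 at rank 1131. The replicates gave a signal of 39.6 at rank 2003 in replicate 1 and 208 at rank 1261 in replicate 3. The start of cox-6B is at 2786202 on chromosome III, and its summit at 2786061, offset -141, had the lowest signal of the 6, with 180 at rank 1540, close to the end of the list. Its region had a signal of 45.3 at rank 1742 in replicate 1 and 118 at rank 2134 in replicate 3. This summit also lay 113 bp upstream of Y71H2AM.20. The other cox- genes for structural subunits, cox-4, cox-6A, cox-6C and cox-7C, had no IDR peak in the window.

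Complex III, the cytochrome bc1 complex, passes electrons from ubiquinol to cytochrome c. The gene ucr-2.2, listed with a peptidase M16 domain as the core subunits of the complex have, starts at 15173904 on chromosome X. Its summit at 15173730, offset -174, had an IDR signal of 235 at rank 1217. The replicates gave a signal of 24.8 at rank 4333 in replicate 1 and 212 at rank 1246 in replicate 3. The same-strand gene ocr-3 ends 268 bp upstream of the start of ucr-2.2, and the summit lay in the space between them. The only mitochondrial ribosome gene with an IDR peak, mrpl-32, encodes large subunit protein bL32m and starts at 8449757 on chromosome III. Its summit at 8449430, offset -327, had an IDR signal of 196 at rank 1420. The signal was 42.7 at rank 1850 in replicate 1 and 150 at rank 1655 in replicate 3. The same-strand gene rpn-3, which encodes a proteasome subunit, ends 411 bp upstream.

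All 6 peaks were weak for the IDR list. Their median signal was 247, against 504 for all IDR peaks, which ranged from 179 to 15652, and none was above that median. Peaks at protein-coding starts were weak as a class: the 322 IDR peaks in such a window had a median signal of 266, and the 254 of them not within 100 bp of a transfer RNA (tRNA), small nucleolar RNA (snoRNA), small nuclear RNA (snRNA), ribosomal RNA (rRNA) or spliced leader (SL) RNA gene had 238. None of the 6 member summits lay within 100 bp of such a gene. Their median offset was -231.5 bp, and that over all genes with an IDR peak was -238 bp. Apart from atp-1, the 5 summits lay between protein-coding genes. All 6 genes lie on the plus strand, as do 62 of the 106 members and 205 of the 367 genes with an IDR peak (55.9%).

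**Figure D1:**
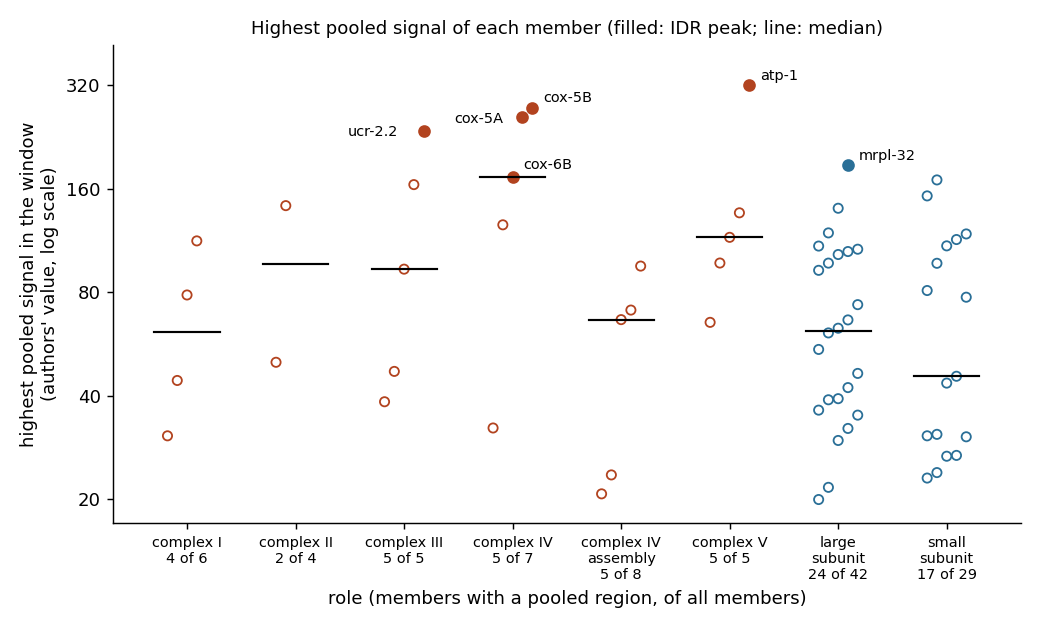
Highest pooled signal in the start window (vertical axis, authors' value, log scale) for each member with a pooled region, by role; filled points have an IDR peak and the line is the median of the role. The highest values are those of atp-1, cox-5B, cox-5A and ucr-2.2, while complex IV assembly genes run from 20.7 to 95.3 and large subunit genes from 19.9 to 187.

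In the larger pooled list the chain genes chosen by prefix had a higher share than the ribosome genes. A pooled region lay in the window of 26 of 35 respiratory chain genes (74.3%, 57.9 to 85.8%), of 41 of 71 mitochondrial ribosome genes (57.7%, 46.2 to 68.5%) and of 25% of all protein-coding genes. Of 41 further respiratory chain genes with other symbols, 21 had a pooled region (51.2%, 36.5 to 65.7%), a lower share than that of the ribosome, so the order holds for the prefixes only. It also depended on the window: with 200 bp upstream in place of 500 bp, the shares were 42.9% for the chain, 43.7% for the ribosome and 15.9% for all genes. Counting the 5000 highest regions only, the numbers were 16 respiratory chain genes (45.7%, 30.5 to 61.8%), 18 mitochondrial ribosome genes (25.4%, 16.7 to 36.6%) and 8.29% of all genes; the further chain genes had 9 of 41 (22.0%, 12.0 to 36.7%). The median of the highest signal of each gene was 94.3 for the chain, 60.9 for the ribosome and 50.8 for all genes with a region. Mitochondrial ribosome genes thus had regions more often than all genes did, with a median signal between those of the chain and of all genes. Among genes with a pooled region, an IDR peak was present at 5 of 26 respiratory chain genes (19.2%, 8.51 to 37.9%), 1 of 41 mitochondrial ribosome genes (2.44%, 0.432 to 12.6%) and 362 of 4987 of all genes (7.26%).

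**Figure D2:**
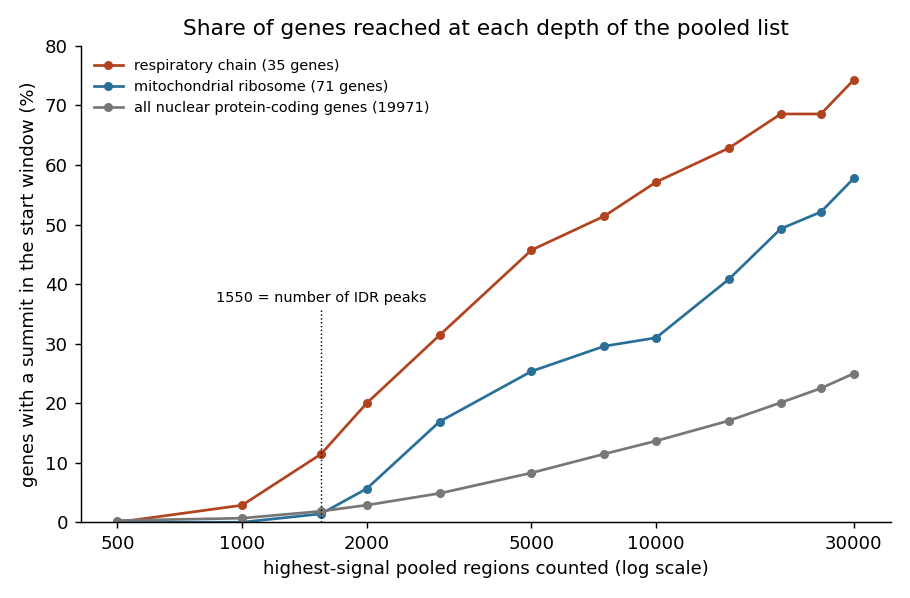
Share of genes with a summit in the start window (vertical axis, %) when only the highest-signal pooled regions are counted (horizontal axis, log scale), for 35 respiratory chain genes, 71 mitochondrial ribosome genes and all 19971 nuclear protein-coding genes. With as many regions as IDR peaks (dotted line) the chain is at 11.4%, the ribosome at 1.41% and all genes at 1.85%; at 3000 regions the values are 31.4% for the chain, 16.9% for the ribosome and 4.85% for all genes.

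The 2 groups parted from the background at different depths of this list. Among as many of the highest pooled regions as there are IDR peaks, the chain had 4 genes and the ribosome 1. Among the 3000 highest, the chain had 11 (31.4%) and the ribosome 12 (16.9%), against 4.85% of all genes. Next in pooled signal after the members with an IDR peak came mrps-7 and mrps-35, for small subunit proteins. Their pooled signals were 170 at rank 1609 and 152 at rank 1798, and how near they came to the IDR threshold is not known. Between them was ucr-2.1, a paralogue of ucr-2.2, with 164 at rank 1650. In replicate 1 and replicate 3 the highest signals were 34.0 and 144 for mrps-7, 33.2 and 104 for mrps-35, and 25.1 and 142 for ucr-2.1. For comparison, cox-6B had a pooled signal of 174 at rank 1576 and mrpl-32 had 187 at rank 1470.

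Complexes were taken from symbols, so subunit genes with other symbols are not counted in the shares by complex. Every ucr- gene of complex III (5 of 5, interval 56.6 to 100%) and every atp- gene of complex V (5 of 5, the same interval) had a pooled region. Their median highest signals were 93.3 and 115, and the share over all protein-coding genes is the 25% given above. After atp-1, the atp- genes were atp-5 (subunit d, pooled signal 136) and atp-3 (the oligomycin sensitivity conferral protein, 115). Then came atp-2 (the catalytic beta subunit, 97.2) and atp-4 (coupling factor 6, 65.3). For atp-5 the signal was only 11.9 at rank 19862 in replicate 1, and 149 at rank 1660 in replicate 3. In complex III, ucr-1 had 93.3, ucr-11 had 47.0 and ucr-2.3, a further paralogue of ucr-2.2, had 38.4. The 3 ucr-2 paralogues thus ran from 236 for ucr-2.2 to 38.4 for ucr-2.3. Reads that fit several paralogues could be shared among them; how the authors placed such reads is not given in the sources used here.

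The cox- genes for structural subunits of complex IV had a region in 5 of 7 cases (71.4%, 35.9 to 91.8%), against 25% of all protein-coding genes. Their median highest signal, 174, was the highest of any role. Besides the 3 with an IDR peak these were cox-6C (126) and cox-4 (32.2); cox-6A and cox-7C had none in any list. Complex IV assembly factors supply haem or copper or help to build the complex. Their 8 cox- genes had a region in 5 cases (62.5%, 30.6 to 86.3%), against 25% of all protein-coding genes. None had an IDR peak, against 1.84% of all genes, and 0 of 8 allows a share of up to 32.4% (Wilson). Their highest pooled signal was that of cox-14, at 95.3. The copper chaperone gene cox-17, and cox-18 and cox-19, had no region in any of the lists. Of all 19971 protein-coding genes, 13176 had none in the pooled and replicate lists.

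Complex I, which takes electrons from NADH, had a pooled region at 4 of its 6 nuo- genes, against 25% of all protein-coding genes. The highest was nuo-5, for the 75 kDa subunit, at 113 and an offset of +24. None of these 6 had an IDR peak, against 1.84% of all genes, and 0 of 6 allows a share of up to 39.0% (Wilson). Subunit genes of this complex with other symbols did have IDR peaks, at nduv-3 (IDR signal 240) and ndua-2 (183). The summits of nuo-2 and nuo-6 were in the replicate 1 list only, at ranks 22464 and 10852 of its 23931 regions. Complex II, succinate dehydrogenase, which also belongs to the citric acid cycle, had regions at both genes for its flavoprotein, with 143 at rank 1941 for sdha-1 and rank 8882 for sdha-2, and in none of the lists at sdhb-1 or sdhd-1. The sdha-1 summit, offset -253, lay 70 bp from the snoRNA gene D2021.6, the only pooled summit of a member within 100 bp of a small RNA gene of the classes above. Its nearness to that gene was not tested as a part of the result.

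Of the mitochondrial ribosome genes, 24 of 42 for the large subunit (57.1%, 42.2 to 70.9%) and 17 of 29 for the small subunit (58.6%, 40.7 to 74.5%) had a pooled region, against 25% of all protein-coding genes. Their median highest signals were 61.8 and 45.5. That of the small subunit was thus below the 50.8 of all genes with a region. The 5 highest were mrpl-32 (187), mrps-7 (170), mrps-35 (152), mrpl-18 (140) and mrpl-41 (119). The mrpl-41 region was in the pooled list alone, with no summit in the window in either replicate's list, and its summit lay 37 bp into the gene, in coding sequence. That of mrps-35 lay in an untranslated exon of the neighbouring gene sws-1. The subunits were taken from symbols; the annotation gives mrps-18C a product of the large subunit, uL3m, and its pooled signal was 30.5.

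**Figure D3:**
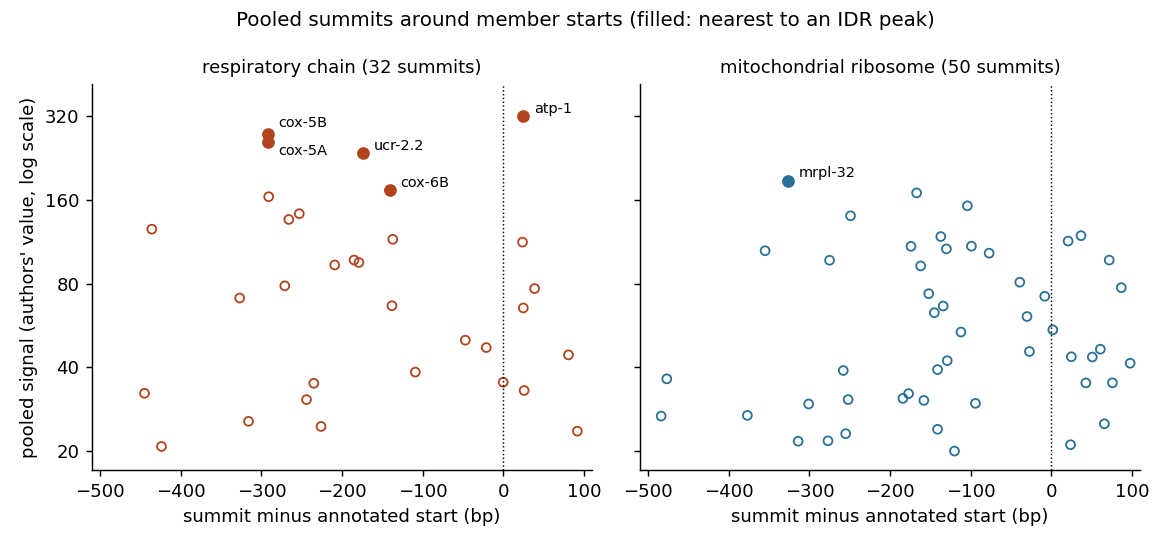
Pooled summits of respiratory chain genes (left, 32 summits) and mitochondrial ribosome genes (right, 50 summits) by distance from the annotated start (horizontal axis, bp, negative upstream) and pooled signal (vertical axis, authors' value, log scale). Of the summits nearest to an IDR peak (filled), only that of atp-1, at +25, lies downstream of the start. Among the others, mrpl-41 (+37, signal 119), mrps-2 (+21, 114) and nuo-5 (+24, 113) also lie downstream.

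The strongest summit of each gene lay 100 bp or more upstream for 19 of 26 respiratory chain genes and 27 of 41 mitochondrial ribosome genes, and downstream of the start for 5 and 8. The share upstream at any distance was 80.8% for the chain, 80.5% for the ribosome and 83.3% for all genes with a region. Both groups were thus near the share over all genes. The median offsets were -182 bp for the chain, -141 bp for the ribosome and -169 bp for all genes with a region. By annotation, 14 chain summits and 29 ribosome summits lay between protein-coding genes, while 5 and 8 lay in coding exons. All 5 member summits in noncoding exons were of the chain, at sdha-1, cox-6C, atp-3, nuo-1 and cox-10. The same places were not counted over all genes. Many windows were shared: the summit also lay in the window of another protein-coding gene for 14 of 26 chain genes (53.8%) and 15 of 41 ribosome genes (36.6%), against 23.5% of all 4987 genes with a region. Examples are ucr-2.1, whose summit is 95 bp upstream of nmat-1, atp-5 with lmtr-3, mrpl-18 with phka-1, nuo-1 with rpl-36A and mrpl-49 with rpl-28; the last 2 partners encode cytosolic ribosomal proteins. For such summits the bound gene cannot be told from position.

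The groups also had different median base compositions, with ranges that overlapped widely. The windows of 50 bases on each side of the best pooled summits had a median of 47.0% G and C for the chain, 38.6% for the ribosome and 40.6% for all genes with a region. Single windows ran from 24.8 to 57.4% for the chain, 20.8 to 54.5% for the ribosome and 11.9 to 70.3% for all. The difference between the groups was not tested. CGCGCA or its reverse complement was present in 4 of 26 chain windows (15.4%), 4 of 41 ribosome windows (9.76%) and 6.78% of all 4987. GCGCAC was present in 3 chain windows (11.5%), 5 ribosome windows (12.2%) and 6.96% of all, and CACTCG in 1 (3.85%), 2 (4.88%) and 4.05%. CGGCCA was present in 2 chain windows (7.69%), 0 ribosome windows and 4.11% of all, GGCCGA in 2, 0 and 3.43%, and ACCACT in 0, 0 and 3.75%. The 6 sequences thus gave no common order of the groups. The part of base composition in the signal was not tested.

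Close spacing was about as frequent in both groups. A same-strand protein-coding neighbour ended within 500 bp upstream of 14 of 35 chain genes (40%) and 30 of 71 ribosome genes (42.3%), against 20.4% of all protein-coding genes. With such a neighbour, 10 of 14 chain genes (71.4%, 45.4 to 88.3%) and 16 of 30 ribosome genes (53.3%, 36.1 to 69.8%) had a pooled region, against 32.6% of all genes of that kind. Without one, 16 of 21 chain genes (76.2%, 54.9 to 89.4%) and 25 of 41 ribosome genes (61.0%, 45.7 to 74.3%) had a region, against 23.0% of all genes of that kind. The pooled shares of both groups were therefore above those of all genes with either spacing. The IDR peaks of ucr-2.2 and mrpl-32 were at genes with such a neighbour and the other 4 were not. Operon membership itself was not determined here.

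The replicates gave the order of the groups in each list, at different levels. A region lay in the window of 22 chain genes (62.9%) in replicate 1 and 25 (71.4%) in replicate 3, a mean of 67.1% ± 6.06 (SD, n = 2). For the ribosome the numbers were 28 (39.4%) and 38 (53.5%), a mean of 46.5% ± 9.96 (SD, n = 2). Over all protein-coding genes the shares were 18.5% in replicate 1 and 24.2% in replicate 3. The chain minus the ribosome was 23.4 percentage points in replicate 1 and 17.9 in replicate 3. The replicate 3 list is the longer, and both groups and all genes had higher shares in it. Both replicates' lists held 20 chain genes and 20 ribosome genes, while 7 chain genes and 20 ribosome genes were in none of the pooled and replicate lists. Of all 19971 protein-coding genes, 2286 were in both replicates' lists and 13176 in none.

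When as many of each replicate's highest regions were taken as there are IDR peaks, the result rested on replicate 3. Replicate 1 had 1 chain gene there, atp-1 (2.86%), and 0 ribosome genes, against 0.901% of all genes. Replicate 3 had 4 chain genes (11.4%), atp-1, cox-5B, ucr-2.2 and cox-5A, and 0 ribosome genes, against 1.67% of all genes. A count of 0 of 71 allows a share of up to 5.13% (Wilson). The median place was the top 20.2% for the chain, 32.6% for the ribosome and 37.1% for all genes in replicate 1, and 11.7%, 19.6% and 30.0% in replicate 3.

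**Figure D4:**
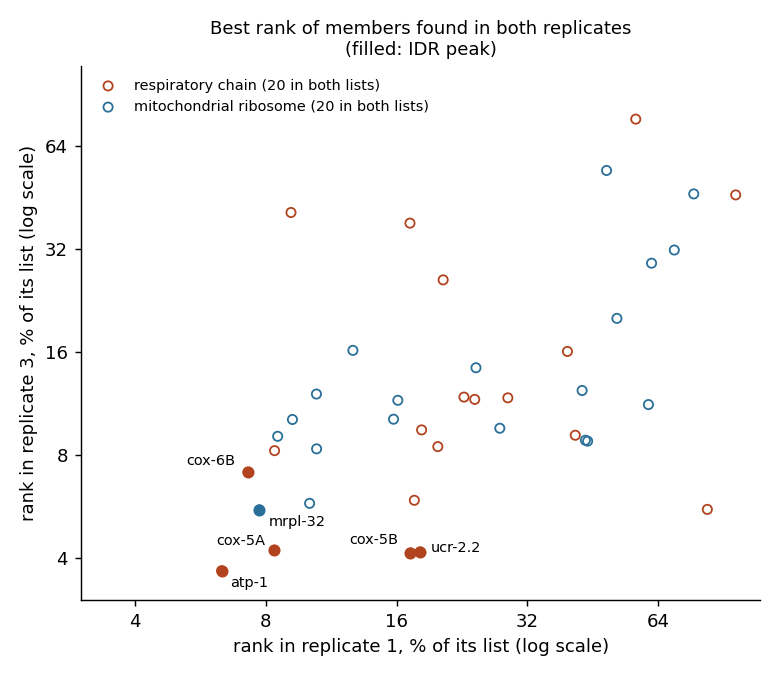
Best rank of each member found in both replicates, as a percentage of the replicate 1 list (horizontal) and of the replicate 3 list (vertical), on log scales; a low value is a strong region and filled points have an IDR peak. The filled points are within the top 7.11% of replicate 3 and, for cox-5B and ucr-2.2, only within the top 18.1% of replicate 1.

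Cytosolic ribosomal protein genes, which build the ribosome outside mitochondria, are known from earlier results of these data to have many peaks and are given here as values beside the mitochondrial ribosome. An IDR peak lay in the window of 1 of 71 mitochondrial ribosome genes (1.41%, 0.249 to 7.56%) and of 19 of 78 cytosolic ribosomal protein genes (24.4%, 16.2 to 34.9%). The share over all protein-coding genes was 1.84%. Respiratory chain genes chosen by prefix lay between the 2 ribosomes, at 14.3%, and the 41 further chain genes were at 7.32%. The highest IDR signal of the prefix genes, 310 at atp-1, was below the 797 of rpl-15, 710 of rpl-35, 677 of rpl-3 and 558 of rps-3A.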

How the data were processed

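B0261.1-GFP ChIP-seq lists of 2 biological replicates (numbers 1 and 3, 1 group) were used. By the descriptions deposited with the files, the authors aligned reads to ce11, called peaks and background regions per replicate and on both replicates pooled against a control, and derived an IDR list from these. The aligner, the caller and the IDR threshold are not given in the sources used here. The deposited signal value has no stated normalisation and is compared within a list only; medians of the replicates' lists in the closing section are on the scale of each list; the deposited −log10 q-value entered no result. Lists on the earlier build ce10 were not used. The lists give no read depth, which leaves its effect on precision unknown.

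Regions were ranked by signal and placed by summit, no more than 500 bp before and 100 bp after the start of 19971 nuclear protein-coding genes (RefSeq, WormBase release 298, WBcel235; coordinates 1-based). Shares of the 2 groups with a region have Wilson intervals (95%) and the share over all genes; shares of smaller sets, of motifs and of shared windows may lack an interval. No test between gene groups was made: regions and genes are not replicates, and the members, lists and 6-base sequences were chosen with earlier results of these data known. SD is over the 2 replicates. Named were all members with an IDR peak, the 5 of highest pooled signal in each group, members among as many of the highest regions of both replicates as there are IDR peaks, and up to 4 genes with an IDR peak in each other list; genes named beyond these were chosen after their values were seen. On simulated data, 121 of 121 summits planted inside a window, of 200 planted around 19971 genes, were recovered with their exact offset. Alternatives were other windows, any transcript start, region overlap, omission of summits near small RNA genes or of closely spaced genes, merged sites, stronger peaks only and each replicate alone. The scripts ran under Python 3.11.15 with pandas 2.3.3, numpy 2.4.6 and scipy 1.17.1; figures used matplotlib 3.10.9.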

Additional observations from a re-analysis of the deposited data

How the results depend on the processing

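Of 72 alternative values 51 counted as the same and 21 as moved, by a wide bound. A share counted as the same within a set ratio of the reported one. The pooled share of all members did so at 43.4% with 200 bp upstream, from 63.2%. For medians the bound was the SD of the values of the 2 single replicates. The median offset of IDR summits thus counted as the same at -141 bp with 200 bp upstream, from -231.5 bp. The tally is therefore no measure of stability. The IDR share of all members moved to 2.83% with 200 bp upstream (all genes 0.771%) and 8.49% with 1000 bp (all genes 2.7%), and that of the chain to 8.57% with 200 bp. That of the ribosome moved to 0% with 200 bp, 4.23% with 1000 bp, 2.82% with region overlap (all genes 2.5%) and 0% without closely spaced genes (all genes 1.91%). Among the IDR peaks above the median signal all 3 shares were 0% (all genes 0.366%), so no median exists there. To leave out each replicate, the IDR list was replaced by as many of the highest regions of the other replicate's list. These are not IDR peaks. The shares were 0.943 to 3.77% for all members, 2.86 to 11.4% for the chain and 0 to 0% for the ribosome. Over all genes they were 0.901% in replicate 1 and 1.67% in replicate 3. The median signal was 53.5 to 212 and the median offset -247 to -10 bp. In the replicates' whole lists the median highest signal was 21.2 to 65.3. The signals of these lists are on scales of their own, so their distance from the reported medians shows no change, and the -10 bp rests on atp-1 alone. With the 10000 highest regions (all genes 13.7%) the pooled share moved to 39.6% for all members and 31.0% for the ribosome, and the median highest signal to 106, since weaker regions are left out. With 200 bp upstream the pooled share of the chain moved to 42.9% and that of the ribosome was 43.7%, against 15.9% of all genes, so the order of the groups turned. The cause of the other moves was not tested.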

Other observations

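Other mitochondrial genes were counted from lists named by symbol. Of 41 further respiratory chain genes outside the prefixes, 3 had an IDR peak (7.32%, interval 2.52 to 19.4%): nduv-3 and ndua-2, for complex I subunits, with IDR signals of 240 and 183, and cyc-2.1, for cytochrome c, with 234. The cyc-2.1 summit had no counterpart within 100 bp in replicate 1, although it had a signal of 235 at rank 1161 in replicate 3. Of 19 genes of the citric acid cycle and pyruvate dehydrogenase, 1 had an IDR peak, dlst-1, with a signal of 250. Of 13 genes for mitochondrial protein import, 2 had one, the receptor gene tomm-20 with 291 and timm-23, for the channel of the inner membrane, with 258. Of 8 carrier genes, 1 had one, the adenine nucleotide translocator gene ant-1.1, with 186 at an offset of +1. None was found at 8 genes for mitochondrial chaperones and proteases or at 8 for coenzyme Q synthesis, against 1.84% of all protein-coding genes.

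In the pooled list a region lay in the window of 21 of 41 further chain genes (51.2%), 14 of 19 citric acid cycle and pyruvate dehydrogenase genes (73.7%), 9 of 13 import genes (69.2%), 5 of 8 carrier genes (62.5%), 4 of 8 chaperone and protease genes (50%) and 3 of 8 coenzyme Q genes (37.5%), against 25% of all genes.

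A window of 1000 bp upstream added IDR peaks at 3 members. The strong peaks near mrps-28 (offset -969, signal 5586, rank 30) and cox-6A (offset -798, signal 2077, rank 391) lay 83 bp from the snoRNA gene Y43F8C.22 and 30 bp from the snRNA gene F54D8.7. The peak near mrpl-15 (offset -677, signal 248, rank 1171) had no such gene within 100 bp.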
